A study of Mus musculus with 4 samples.

Results

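Dense peaks are defined here as peaks of the mouse autosomes, chromosomes 1 to 19, whose deposited signal value divided by their width in bp is at least 5. They were taken from 2 ATAC-seq peak lists of embryonic limb cells, 1 list at E10.5 and 1 at E11.5 (E stands for embryonic day). Of 97739 autosomal E10.5 peaks, 1071 were dense (1.10%). Of 36384 autosomal E11.5 peaks, 244 were dense (0.671%). Together these are 1315 members among the 136975 peaks of both lists. The signal values themselves chose the members, so their levels are given as a description without a test.

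ATAC-seq marks open chromatin with the transposase Tn5, which cuts accessible DNA and inserts sequencing adaptors. The 4 samples were forelimb and hindlimb cells of wild-type embryos, 2 replicates per stage (the younger stage is E10.5 in the titles and E10 in a protocol), with no allele, transgene or agent that separates the groups. The cells were dispersed with trypsin and fixed before transposition, and the labels do not say how many embryos were pooled. Each list joins both replicates of a stage, so no value below has a replicate spread, no difference between the lists can be tested, and the depth is unknown. In such bulk samples, more cells with open chromatin and more open chromatin per cell cannot be told apart.

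Active promoters of widely expressed genes are usually depleted of nucleosomes and are the most accessible single-copy sites of most cell types. Repeated sequence can also collect reads, because an assembly that holds fewer copies than the genome stacks the reads of all copies on the few it has. Known examples are the major satellite beside mouse centromeres, the ribosomal RNA genes, telomere repeats and copies of mitochondrial DNA that were inserted into the nuclear chromosomes. An aligner cannot separate such a nuclear copy from the mitochondrial genome where their sequences are alike.

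Some of the strongest promoters among the dense peaks are shown first, because their base composition recurs below. For 8 promoters dense in both lists, all high in the order of mean signal per base, the RefSeq promoter table (build GRCm38.p6, which has the mm10 coordinates) gave these stretches of 150 bases that end just before the start site of the gene named. They run 5′ to 3′ on the strand of the gene. Capitals mark CCAAT and the GC box GGGCGG on either strand, and some of the marked copies overlap.
Tomm40: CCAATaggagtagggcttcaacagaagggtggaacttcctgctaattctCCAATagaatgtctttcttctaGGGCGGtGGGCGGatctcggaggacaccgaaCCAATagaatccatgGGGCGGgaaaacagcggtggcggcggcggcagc
Nr1d2: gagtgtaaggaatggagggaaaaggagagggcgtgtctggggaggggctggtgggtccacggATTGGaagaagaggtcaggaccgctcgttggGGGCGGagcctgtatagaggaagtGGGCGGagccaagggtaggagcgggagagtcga
Rps6ka5: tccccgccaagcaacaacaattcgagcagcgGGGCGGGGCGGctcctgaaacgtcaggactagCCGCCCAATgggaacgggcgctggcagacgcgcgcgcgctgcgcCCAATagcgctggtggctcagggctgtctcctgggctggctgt
Sp1: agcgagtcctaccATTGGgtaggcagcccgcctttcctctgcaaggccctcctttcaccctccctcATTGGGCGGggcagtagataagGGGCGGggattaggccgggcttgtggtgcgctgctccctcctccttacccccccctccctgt
Dstn: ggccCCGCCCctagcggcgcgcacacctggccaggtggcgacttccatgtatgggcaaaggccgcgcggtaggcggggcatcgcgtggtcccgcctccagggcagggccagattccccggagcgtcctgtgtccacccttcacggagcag
Fam76b: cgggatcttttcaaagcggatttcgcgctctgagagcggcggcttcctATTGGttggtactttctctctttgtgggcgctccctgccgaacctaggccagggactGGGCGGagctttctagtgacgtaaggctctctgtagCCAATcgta
Zfp619: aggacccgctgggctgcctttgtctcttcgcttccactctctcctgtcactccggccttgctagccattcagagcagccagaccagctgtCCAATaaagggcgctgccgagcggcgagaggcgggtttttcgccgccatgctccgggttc
Cep170: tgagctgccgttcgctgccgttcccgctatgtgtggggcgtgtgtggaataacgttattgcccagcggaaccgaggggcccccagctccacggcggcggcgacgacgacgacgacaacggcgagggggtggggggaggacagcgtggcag

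In the first of these, the Tomm40 promoter (chr7:19715430-19715579, minus strand), 3 copies of CCAAT and 3 GC boxes were found. The stretches lie at chr14:18239107-18239256 (minus strand) for Nr1d2, chr12:100725121-100725270 (minus strand) for Rps6ka5, chr15:102406166-102406315 (plus strand) for Sp1 and chr2:143915181-143915330 (plus strand) for Dstn. Those of the other three lie at chr9:13827566-13827715 (plus strand) for Fam76b, chr7:39517616-39517765 (plus strand) for Zfp619 and chr1:176813954-176814103 (minus strand) for Cep170. Of the 8, 6 hold CCAAT and 6 hold a GC box, and the Cep170 stretch holds neither.

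Most dense E10.5 peaks lay at promoters, and a smaller share of the dense E11.5 peaks did. A promoter peak lies within 1 kb of a protein-coding start site. At E10.5, 694 of 1071 dense peaks were promoter peaks (64.8%, 95% Wilson interval 61.9 to 67.6%), against 14.7% of all other autosomal peaks of the list. At E11.5, 96 of 244 were (39.3%, 33.4 to 45.6%), against 36.4% of the others. These intervals cover counting error only and treat neighbouring peaks as independent. The order of the lists turned with the threshold: at a signal per base of at least 4, the promoter share was 66.5% at E10.5 and 76.6% in the E11.5 list.

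The promoter share rose and then fell along the scale of signal per base. At E10.5 it went from 9.33% of peaks under 3 to 72.4% of the 804 peaks from 5 to 6, and then down to 62.3% of the 154 peaks from 6 to 7 and 26.7% of the 60 peaks from 7 to 10. At E11.5 it was highest, 86.4%, from 4 to 5, and fell to 66.2% of 133 peaks from 5 to 6 and 26.7% of 30 peaks from 6 to 7. None of the 53 E10.5 peaks at 10 or more was a promoter peak, which allows a share of up to 6.76% at the upper end of the interval. None of the 81 E11.5 peaks at 7 or more was. The E10.5 peaks at 10 or more were also narrow, with a median width of 438 bp against 1532 bp for those from 5 to 6. Width is the divisor of signal per base, so width and level are not independent. The E10.5 peaks under 3 were narrow too, with a median of 571 bp.

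**Figure D1:**
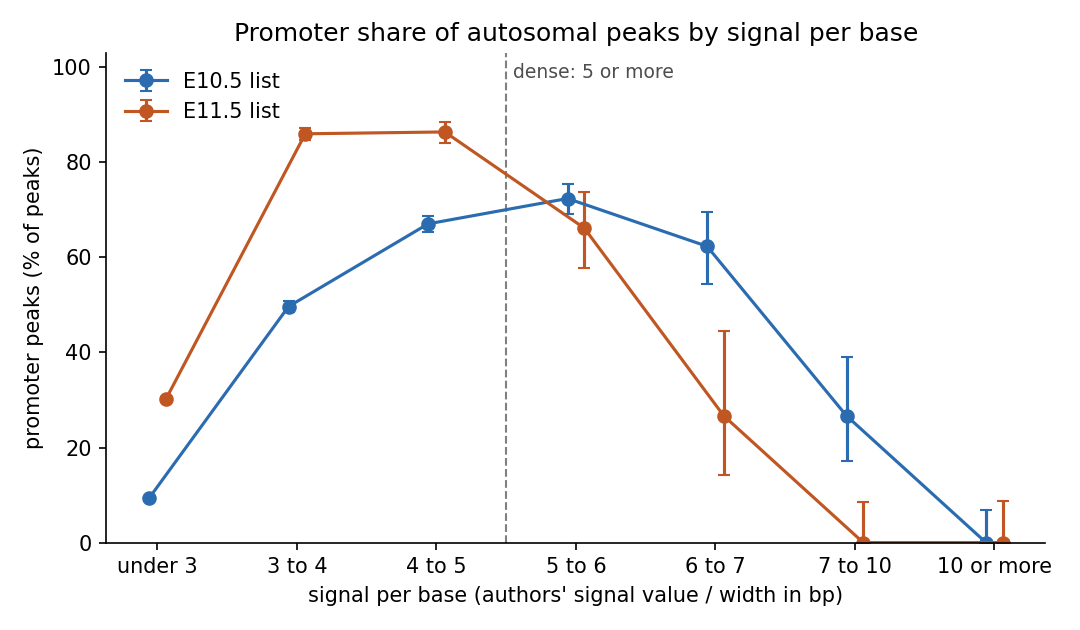
Share of autosomal peaks within 1 kb of a protein-coding start site (vertical axis, percent) by signal per base (horizontal axis, 7 ranges), for the E10.5 and E11.5 lists, with 95% Wilson intervals. Both lines rise to between 72.4 and 86.4% and drop to 0 at the highest signal per base.

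Among the dense promoter peaks, 66 of 694 at E10.5 overlapped a dense E11.5 peak, against 0.218% of the other E10.5 promoter peaks. The highest of the 66 was at Sspn, which encodes a membrane protein of the dystrophin complex (chr6:145932710-145933072), with a signal per base of 9.001 at E10.5 and 5.15 in the E11.5 list. It was 363 bp wide, far narrower than the median dense promoter peak of 1588 bp. Zfp869, a zinc finger gene (chr8:69716345-69717650), had 8.16 and 6.27. Tomm40, which encodes the pore of the mitochondrial outer membrane import machinery (chr7:19714903-19716470), had 7.80 and 5.53.

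The transcription factor gene Rfx1 (chr8:84066060-84067711) had 7.65 at E10.5 and 5.36 in the E11.5 list. Rps6ka5, which encodes a histone kinase (chr12:100724074-100725811), had 7.04 and 5.599. Nr1d2, which encodes a repressor of the circadian clock (chr14:18237878-18239882), had 6.90 and 6.21. All of these were higher in the E10.5 list.

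Sp1, whose product binds GC boxes (chr15:102404853-102407239), had 6.67 and 5.84. Dstn, which encodes the actin-severing protein destrin (chr2:143914625-143916153), had 6.28 and 6.17. Zfp619 (chr7:39517248-39518155) was the only 1 of the 20 highest by mean that was higher at E11.5, with 5.93 at E10.5 and 6.26 in the E11.5 list. The other genes among the 20 highest by mean were Fam160a2, Zfp866, Cep57 with Fam76b, Cep170 with Sdccag8, Ap2a1, Pja2, AW549877, Bmt2, Eny2 with Nudcd1, Tsga10 and the pair Odr4 and Tpr. Cep57, Cep170 and Sdccag8 encode proteins of the centrosome, Ap2a1 a subunit of the clathrin adaptor and Tpr a component of the nuclear pore.

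Nearly all promoter peaks dense in 1 list also had a peak in the other. So did 11938 of 14205 promoter peaks that were not dense at E10.5, and 12996 of 13157 at E11.5. At E11.5 the dense promoter peaks were thus near this background. How many of the other promoter peaks reached 4 in the other list was not computed. Of the 694 dense E10.5 promoter peaks, 343 (49.4%) reached at least 4 at E11.5, 72 stayed under 3 there and 1 had no E11.5 peak. Map3k3, a kinase gene (chr11:106083733-106085631), had 8.32 at E10.5 and 4.996 in the E11.5 list, where its peak fell just short of the threshold. H1f3, a linker histone gene (chr13:23554883-23556726), had 7.58 and 3.06. Ccdc107 had 7.48 and 4.30, and Tuba1a, an alpha-tubulin gene, had 7.30 and 4.28. Crebzf had a peak of 110 bp at E10.5 with 7.33 and none at E11.5.

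In the other direction, 90 of the 96 dense E11.5 promoter peaks reached at least 4 at E10.5. The highest that were not dense at E10.5 were at Ripk2, a kinase gene of innate immune signalling, with 6.57 at E11.5 and 4.22 at E10.5, and Mad2l1, a spindle checkpoint gene, with 6.03 and 4.92. Ube2d3, a ubiquitin-conjugating enzyme gene, had 5.91 and 4.30, Shprh had 5.65 and 4.91, and Xpo1, the gene of the main nuclear export receptor, had 5.57 and 4.55.

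Of the gene classes, histone genes had the largest share of dense promoters at E10.5. Histone genes that serve chromosome replication lie in clusters, in many similar copies without introns, and are transcribed strongly in dividing cells. Of 73 histone genes with a promoter peak at E10.5, 31 had a dense one (42.5%), against 836 of 14265 protein-coding genes (5.86%). The 31 genes share 16 peaks, because neighbouring genes lie under 1 peak. Counted by peak, 16 of 53 histone promoter peaks were dense at E10.5 (30.2%), against 4.57% of all other promoter peaks. On chromosome 13, 12 of 36 histone promoter peaks were dense, spread over 2.04 Mb, and they covered 25 genes.

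Next to H1f3, the highest histone peak held H1f4 and H2bc6 (chr13:23620694-23622704), with a signal per base of 7.24. The peak of H2ac24 and H4c18 had 6.47 at E10.5 and 4.01 in the E11.5 list. None of the 60 histone promoter peaks of the E11.5 list was dense, against 0.728% of all other E11.5 promoter peaks, and their highest value was 4.98. The median over histone promoter peaks was 4.54 at E10.5 and 3.14 in the E11.5 list, and that over all other promoter peaks 2.89 and 2.30. Histone peaks were thus the denser group in both lists. Because the genes are near copies of each other, reads could be split or shared between them, and this was not tested.

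Among small nuclear RNA genes that had an E10.5 peak, a large share also lay under a dense one. These genes encode the RNA parts of the spliceosome and of related particles, and many lie in repeated clusters. They were looked at after the values had been seen. Of 62 snRNA entries of the RefSeq table that lay under an autosomal E10.5 peak, 22 lay under a dense one (35.5%, 24.7 to 47.9%), against 6.27% of the protein-coding entries that lay under a peak. Each of the 22 lay under its own peak, and 19 of these peaks were away from protein-coding start sites. Most snRNA entries had no peak: 62 of 931 (6.66%) had an E10.5 peak, against 76.3% of 20661 protein-coding entries. Over all entries, with or without a peak, 22 of 931 snRNA and 989 of 20661 protein-coding entries lay under a dense peak. The snRNA share was the lower on that count. None of the 53 snRNA entries with an E11.5 peak lay under a dense one, where the share of protein-coding entries was 1.12%.

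The U3 genes Rnu3b1, Rnu3b3, Rnu3b4 and Rnu3b2, whose RNA acts in ribosome assembly, lie side by side within Tex14 on chromosome 11. Their peaks had a signal per base of 7.52, 6.41, 7.23 and 6.61 at E10.5, and 4.46, 3.66, 4.39 and 3.003 at E11.5. Rnu2-10, a U2 gene, had 5.75 and 2.91, Rnu12, a U12 gene, had 5.20 and 2.67, and Rn7sk, the gene of the 7SK RNA that restrains transcription elongation, had 5.56 and 3.07. A run of 6 snRNA entries on chromosome 12 between 54710308 and 54738622 had peaks from 5.55 to 6.84 at E10.5.

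The tRNA, miRNA, snoRNA and rRNA entries had observed shares below that of protein-coding entries. The densest peak over an entry counted, and a long protein-coding gene can hold many peaks. Of 261 tRNA entries with an E10.5 peak 7 lay under a dense one (2.68%), in 3 peaks, and of 213 miRNA entries 6 did (2.82%). Of 74 snoRNA entries 1 did (1.35%), with an interval of 0.239 to 7.27% that includes the 6.27% of protein-coding entries. Of 49 rRNA entries with an E10.5 peak none lay under a dense one, which allows a share of up to 7.27%. Of 2 entries of the scRNA type with an E10.5 peak, 1 lay under a dense one. It was Rn7s2, a gene of the 7SL RNA of the signal recognition particle, with 5.71.

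Other gene classes defined by their symbols stood nearer to the 5.86% of all genes. Chaperone genes had 10 dense of 77 with a promoter peak at E10.5 (13.0%), led by Hsph1 (6.07), Hsp90b1 (5.80) and Dnaja1 (5.76). Genes of tRNA synthetases had 4 of 36 (11.1%), led by Nars2 (5.89), Lars (5.77) and Tars (5.69). Zinc finger genes of the Zfp series had 26 of 356 (7.30%), led by Zfp869 (8.16), Zfp142 (6.81) and Zfp866 (6.59). Of 5 such genes within 150 kb on chromosome 8, Zfp869, Zfp866, Zfp963 and Zfp868 were dense at E10.5, and Zfp964 had 4.78.

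Genes of mitochondrial ribosomal proteins had 6 dense of 78, led by Mrps16 (6.26), Mrpl50 (5.57) and Mrpl41 (5.40). Splicing and RNA-binding genes had 4 of 51, led by Hnrnpc (6.44), Hnrnpa1 (6.09) and Hnrnpul2 (5.84). Respiratory chain genes had 5 of 96, led by Cox18 (5.67), Ndufv1 (5.33) and Atp5g1 (5.30). Translation factors had 3 of 64, Eif4g2 (5.17), Eif5b (5.05) and Eif5 (5.02), and proteasome genes 2 of 48, Psme2 (5.92) and Psma2 (5.26). Psma2 shares its peak with Mrpl32. Ubiquitin enzymes had 3 of 76, Usp22 (7.03), Usp5 (7.01) and Ube2g1 (5.50). Genes named as ribosomal proteins had 3 of 88, of which Rps6ka5 is a kinase gene and Rps26 (5.37) and Rpl37 (5.25) encode ribosomal proteins. None of 28 RNA polymerase genes and none of 16 small RNA host genes had one. Altogether, with histone genes included, 97 of the 836 genes (11.6%) fell into a class, against 7.51% of all genes with an E10.5 promoter peak. Histone genes made up 31 of the 97, in 16 shared peaks. Among the 1071 class genes with any E10.5 promoter peak, 73 were histone genes. The shares without histone genes were not computed. At E11.5, 8 of 111 did (7.21%), against 8.10% of all: the zinc finger genes Zfp869, Zfp619, Zfp866, Zfp51 and Zfp868, and Rps6ka5, Cox7c and Ube2d3.

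**Figure D2:**
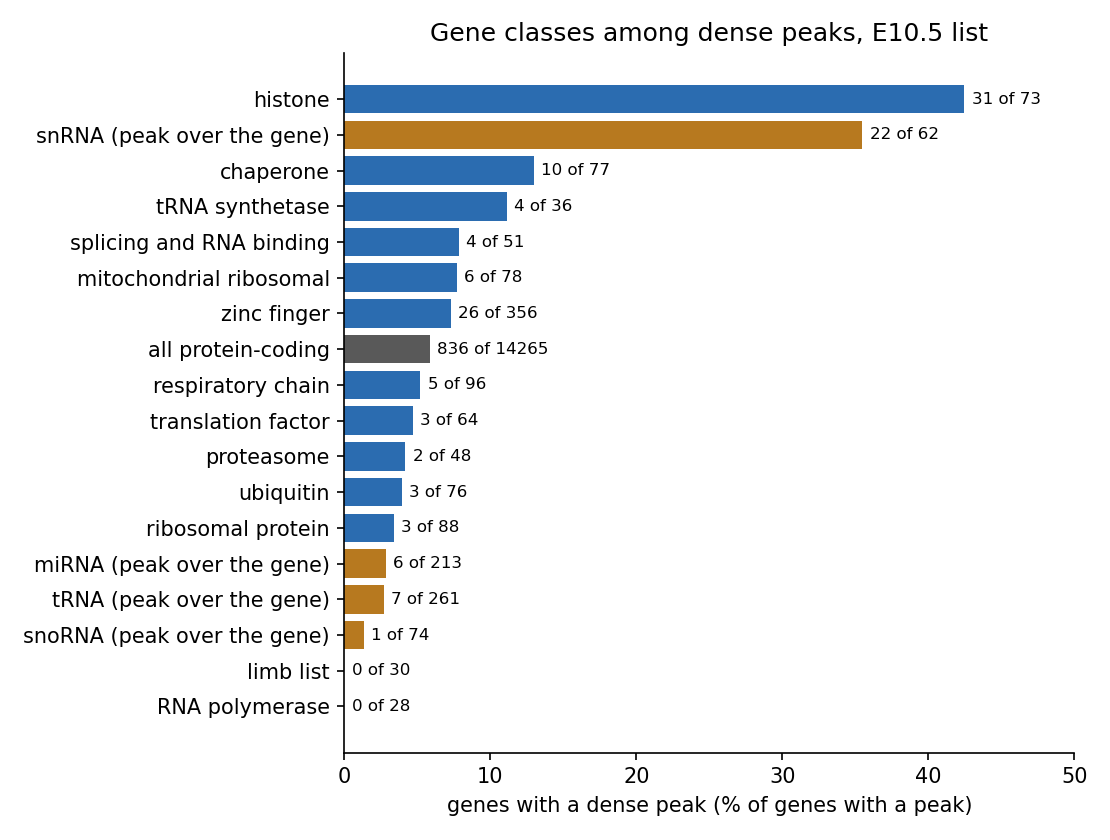
Percent of genes with an E10.5 peak whose peak was dense (horizontal axis), for gene classes by promoter peak (blue), all protein-coding genes (grey) and small RNA types by a peak over the gene (brown). Counts of genes stand beside the bars, and genes that share a peak are each counted. Histone (31 of 73) and snRNA genes (22 of 62) stand apart from the rest.

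Promoters of dense peaks held CCAAT more often than promoters of other peaks. CCAAT is the site of the factor NF-Y, and the GC box GGGCGG that of Sp1 and its relatives. Windows of 300 bases, from 250 before to 50 after the start site, came from the RefSeq promoter table and were searched on both strands. At E10.5, 526 of 853 windows at dense peaks held CCAAT (61.7%, 58.4 to 64.9%), against 35.7% of 13150 windows at other promoter peaks and 38.1% of all 20084 windows. At E11.5, 63 of 107 did (58.9%, 49.4 to 67.7%), against 37.8%. Among promoters dense in both lists 51 of 75 did (68.0%).

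The share rose steadily with signal per base above 2, in ranges chosen after the values had been seen. At E10.5 it was 30.3% from 2 to 3, 36.97% from 3 to 4, 47.1% from 4 to 5, 59.6% from 5 to 6 and 72.7% of 132 windows at 6 or more. Windows with at least 2 copies made up 38.2% at dense E10.5 peaks and 12.3% at other promoter peaks. Histone promoters were rich in the motif whether dense or not: 61 of all 75 histone windows held it (81.3%), and 27 of the 31 dense ones. Without histone genes the share at dense peaks was still 60.7%.

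Base composition is given beside these counts. The median GC share of the window was 61.3% at dense E10.5 peaks and 61.3% at other promoter peaks. Among windows below the median GC share of promoter peaks, 68.9% at dense peaks and 41.3% at others held CCAAT, and among the remaining windows 54.6% and 30.2% did. The GC box showed a smaller gap, with 68.6% at dense and 63.3% at other promoter peaks.

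The other motifs were CCGGAAGT (ETS factors), TGACGTCA (CRE), CACGTG (E-box), TATAAA, and longer motifs of NRF1, YY1 and ZNF143. At E10.5 the ETS motif was in 7.27% of windows at dense peaks and 7.30% at others. TATAAA was in 6.10% and 6.90%, CACGTG in 7.03% and 9.80%, and TGACGTCA in 3.52% and 3.04%. Over all 20084 windows these motifs were in 5.28%, 12.7%, 7.89% and 2.30%. The ZNF143 motif was rare in both, in 15 of 853 windows (1.76%) at dense peaks and in 0.555% of others. A match describes letters and is not evidence of binding.

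**Figure D3:**
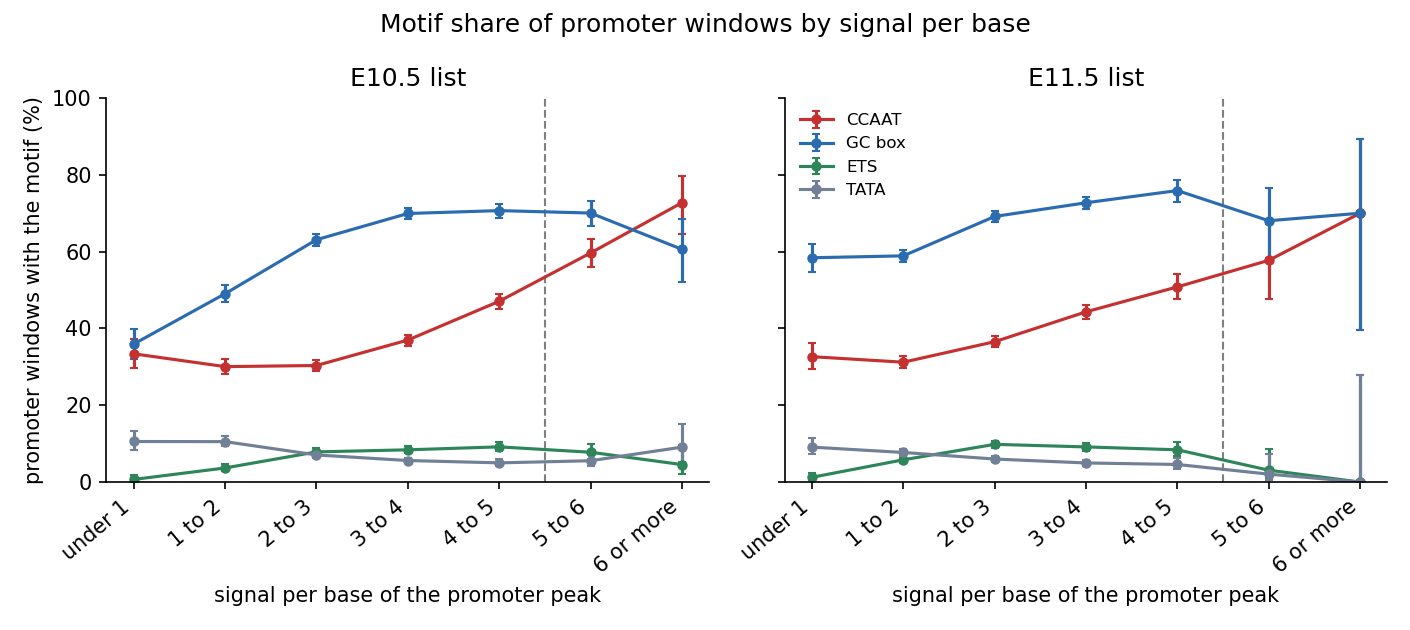
Share of 300-base promoter windows that hold each motif (vertical axis, percent, 95% Wilson intervals) by signal per base of the promoter peak (horizontal axis, 7 ranges), for the E10.5 list (left) and the E11.5 list (right). The dashed line marks a signal per base of 5. CCAAT rises from 30.3% at 2 to 3 to 72.7% at 6 or more in the E10.5 list, and the GC box stays between 60.6 and 70.7% from 2 upward.

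None of the 30 limb patterning genes of a fixed list had a dense promoter, which is near the background of 5.86% at E10.5 and 0.853% at E11.5. All 30 genes had an E10.5 promoter peak, and their median signal per base was 2.87, with Tbx3 highest at 4.63, Ptch1 at 4.32 and Gli3 at 4.23. En1, the homeobox gene of the ventral limb ectoderm that the study concerns, had 1.71 at E10.5 and 0.845 in the E11.5 list. Promoter peaks were found for 9 of 9 limb mesenchyme markers at E10.5 and 6 of 9 at E11.5. They were found for 6 and 4 of 7 surface ectoderm markers, 3 and 2 of 5 endothelial, 2 and 3 of 5 blood, 4 and 2 of 4 muscle precursor, and 4 and 2 of 4 nerve and glia markers. None of these was dense in either list, and the highest of any of these lists outside limb mesenchyme was 3.46, in surface ectoderm at E10.5.

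Dense peaks lay at 4 repeated sequence families in a larger share than other peaks did. The families were found in the mouse genome build NCBIM37 and set beside the mm10 peaks by their distance from promoter windows that occur once and base for base in both builds. At E10.5, 41 of 1071 dense peaks lay at a family (3.83%, 2.83 to 5.15%), against 0.0693% of all other autosomal peaks. At E11.5, 56 of 244 did (23.0%, 18.1 to 28.6%), against 0.180%. The chromosome 18 peaks, 32 and 10 of the members, could not be placed in this way.

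Copies of mitochondrial DNA lay under 14 dense peaks at E10.5 and 12 in the E11.5 list. The densest autosomal E10.5 peak lay at chr1:24611490-24616229 over the pseudogenes Gm10222 and Gm10925, with a signal per base of 36.0 at E10.5 and 37.97 in the E11.5 list. Its sequence matched the mitochondrial genome over 4654 bp at 99.9% identity. The peak of the mitochondrial genome itself, which is no autosome, had 37.6 and 40.6, so this nuclear copy reached nearly the same level.

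A peak of 454 bp at chr12:97061384-97061837, with a match of 365 bp at 99.7% identity, had 25.9 and 27.7. One in Myo3a (chr2:22587243-22590577, 3260 bp at 97.4%) had 19.1 and 18.9, and was placed from 1 side only. Those at chr6:9889894-9890200 (17.96 and 17.3), chr2:69355493-69355710 (16.8 and 19.8), chr5:60042673-60043133 (13.4 and 13.0), chr10:96077483-96077931 (11.1 and 12.1) and chr13:85126514-85127556 (8.43 and 9.01) were also dense in both lists. The levels in the lists were close: over 12 loci away from start sites the median ratio of E11.5 to E10.5 was 1.01.

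Signal per base was higher where the match was closer. All 8 peaks of each list whose match reached 95% identity were dense, with medians of 17.4 at E10.5 and 18.1 in the E11.5 list. Of those with a lower identity, 6 of 16 at E10.5 and 4 of 15 at E11.5 were dense, with medians of 3.90 and 3.66. The level of 95% was chosen after the values had been seen. The match within the promoter peak of Ghitm, which encodes a protein of the inner mitochondrial membrane, is among those with lower identity (5.37 at E10.5 and 5.54 in the E11.5 list).

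Ribosomal DNA, searched only as the assembled piece on chromosome 17, lay under 5 dense peaks at E10.5 and 3 in the E11.5 list. The widest lay at chr17:39842947-39848883 over Rn18s-rs5 and AY036118, the assembled piece of a ribosomal RNA repeat, with 24.7 at E10.5 and 18.98 in the E11.5 list. Matches to that piece lay under peaks at chr6:3200722-3201715 (908 bp at 98.0%, 14.1 and 8.70), in Gnb1l at chr16:18533147-18533375 (140 bp at 100%, 10.4 and 6.83) and at chr8:3754355-3754625 (9.18 and 4.83). All 5 loci were lower at E11.5, with ratios from 0.526 to 0.823, including the 3 that were dense in both lists.

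The miRNA gene Mir6236 lies under a peak of 207 bp at chr9:110281203-110281409 that had 11.7 at E10.5 and 8.82 in the E11.5 list. It matched none of the 4 families, but the ribosomal search covered only the assembled piece on chromosome 17. Whether it matches other ribosomal sequence was not tested. The mature sequence, from the RefSeq table of GRCm38.p6, is given because Mir6236 is the single miRNA under a dense peak in both lists. This sequence spans chr9:110281353-110281371 on the plus strand, and capitals mark the seed, bases 2 to 8.
mmu-miR-6236: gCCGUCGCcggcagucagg

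Satellite sequence with a period of 234 bp lay under 9 dense peaks at E10.5 and 12 in the E11.5 list. The period is that of the mouse major satellite, and it was measured at the start of assembled chromosome 9, where bases 1 period apart were identical in 66.6% of positions. That stretch carried 3 dense E10.5 peaks, from chr9:2999951 to 3038330, with 10.003, 7.34 and 7.44, and a single E11.5 peak of 38495 bp with 21.1. The highest level of any E11.5 member was at chr2:98666183-98667389, with 45.4 at E11.5 and 24.2 at E10.5. Its neighbours at chr2:98662183-98663028 (19.01 at E10.5 and 36.8 in the E11.5 list) and chr2:98663639-98664135 (7.73 and 19.6) also matched.

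Further matches lay at chr9:35305169-35305639 in the lncRNA gene Gm33838 (18.04 at E10.5 and 38.97 in the E11.5 list), chr12:3109827-3110145 (15.5 and 39.3) and in Cdk5rap2 at chr4:70378105-70378271 (6.59 and 14.5). A match in 2210408I21Rik at chr13:77438865-77439106 had 19.2 at E11.5 and 4.93 at E10.5. All 11 satellite loci away from start sites were higher in the E11.5 list, with ratios from 1.87 to 3.94. This includes all 9 peaks dense at E10.5, which make up 7 loci. Those at the start of chromosome 9 share a single E11.5 peak. The signal values chose these loci, so the direction was not tested. Among non-member E10.5 peaks that overlapped an E11.5 peak, 4454 of 30204 were higher at E11.5, and their median ratio was 0.659.

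Telomere-type repeats, which are runs of TTAGGG or its complement, lay under 13 dense peaks at E10.5 and 29 in the E11.5 list. Most were short, with a median width of 283 bp at E10.5 and 242 bp in the E11.5 list, and lay inside chromosome arms. The highest was the last peak of its chromosome, at chr2:182012676-182013268, with 13.0 at E10.5 and 14.1 in the E11.5 list. Others lay at chr14:86198952-86199184 (8.69 and 12.5), chr2:57629446-57629771 (8.78 and 10.3) and in introns or exons, which were not told apart, of Kcnh1 (5.56 and 7.90), Greb1 (5.40 and 7.60), Dop1b (6.13 and 8.96) and Lama1 (6.85 and 7.27). Of 29 loci, all of them dense at E11.5, 26 were higher there, with a median ratio of 1.45. Of the 13 peaks dense at E10.5, 11 were higher at E11.5. In Ror2, a Wnt receptor gene of limb and skeleton, such a peak had 7.19 at E11.5 and 4.89 at E10.5.

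The last peak of a chromosome was dense on most autosomes. With no annotated gene beyond it, such a peak was dense on 13 chromosomes at E10.5 and 14 in the E11.5 list, and not dense on 3 in either list. Those that matched no family were at 14.6 on chromosome 19, 20.3 on chromosome 12, 21.8 on chromosome 14 and 20.7 on chromosome 7 at E11.5, against 11.2, 15.2, 15.7 and 15.5 at E10.5. Of 11 such loci 9 were higher at E11.5, and chromosomes 10 (9.64 at E10.5 and 6.73 in the E11.5 list) and 16 (13.2 and 11.1) were lower. On 9 chromosomes the last E10.5 peak lies beyond the end of the NCBIM37 sequence, so the family search did not cover these ends. Within 500 kb of the first assembled base lay 9 of the dense E10.5 peaks, against 0.254% of other peaks, and 8 of the dense E11.5 peaks, against 0.578%. The 3 of them at the start of chromosome 10, from chr10:3109381 on, had 7.07, 6.73 and 8.07 at E11.5 and no E10.5 counterpart.

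The remaining dense peaks, away from start sites, chromosome ends and family matches, numbered 323 at E10.5 and 79 in the E11.5 list. Of the E10.5 peaks, 89 were up to 600 bp wide, and 25 of these had a signal per base of at least 10. The other 234 were wider, with a median of 5.45 and 2 of them at 10 or more; 151 of these lay over a gene, and 33 near a start site once those of all annotated genes were counted. Among the narrow ones 37 were dense in the other list too, and among the wide ones 13. As width divides the signal, the split by width is not independent of the level.

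Several narrow peaks of extreme density lay within genes. In Zc3h7a (chr16:11143854-11144372) the level was 19.1 at E10.5 and 13.4 in the E11.5 list. In Lars2 (chr9:123461743-123462239) it was 18.01 and 11.9, in Cdk8 (chr5:146260937-146261410) 17.1 and 12.6, in Peak1 (chr9:56223527-56224011) 15.4 and 9.75, and in Gphn (chr12:78350820-78351218) 13.7 and 9.61. The highest lay between genes at chr3:5860286-5860876, with 20.1 and 14.2. All of these were lower at E11.5.

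Of the 50 remaining E10.5 peaks that were dense in both lists, 14 went the other way, as the satellite loci did. In Chl1 (chr6:103649003-103649337) the level was 16.0 at E10.5 and 28.9 in the E11.5 list, and at chr9:24541977-24542205 it was 7.38 and 19.3. At chr14:19415665-19419748, a wide peak of 4084 bp, it was 12.2 and 31.6. A peak at chr2:98664851-98665267, which lies between the satellite matches of chromosome 2, had 13.7 and 24.95. Whether these are repeats of another family was not tested, and the ribosomal search covered only the assembled piece on chromosome 17. The highest remaining peaks dense at E10.5 only were at chr2:90395079-90395244 (13.2 and 3.93) and chr14:19278095-19278260 (11.3 and 4.74). At E11.5 only, the highest was in the lncRNA gene Gm51442 at chr7:26779868-26780088 (11.8, and 2.79 at E10.5).

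Nearly all dense peaks had a counterpart in the other list. Of 1071 dense E10.5 peaks, 1058 overlapped an E11.5 peak (98.8%), against 31.2% of the other E10.5 peaks. Of 244 dense E11.5 peaks, 240 overlapped an E10.5 peak (98.4%), against 91.9% of the others. A dense counterpart was present for 163 of 1071 (15.2%) and 160 of 244 (65.6%), against 0.0869% and 2.57% of the other peaks. Because the lists hold unequal numbers of dense peaks, these shares do not show a difference between stages. Of 1152 loci that were dense in at least 1 list, 160 were dense in both: 66 of 725 promoter loci, 10 of 12 mitochondrial, 3 of 5 ribosomal, 7 of 11 satellite, 14 of 29 telomere-type, 11 of 11 last peaks of chromosomes, none of 8 near chromosome starts and 49 of 351 remaining loci.

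A locus dense at E10.5 only has to be lower at E11.5, and the reverse, so the directions are partly fixed by how loci were chosen. Promoter loci were higher at E11.5 in 41 of 724 cases, with a median ratio of 0.730. Within the E10.5 list, the median ratio was 0.720 for dense promoter peaks and 0.763 for promoter peaks that were not dense. The ratios use the values that chose the members, so this difference was not tested. The remaining loci were higher in 42 of 338 cases, with a median ratio of 0.525. How the authors scaled each list is not given in the sources used here, so a ratio across lists is not a measured change, and whether stage, library or scale sets these ratios cannot be told apart.

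**Figure D4:**
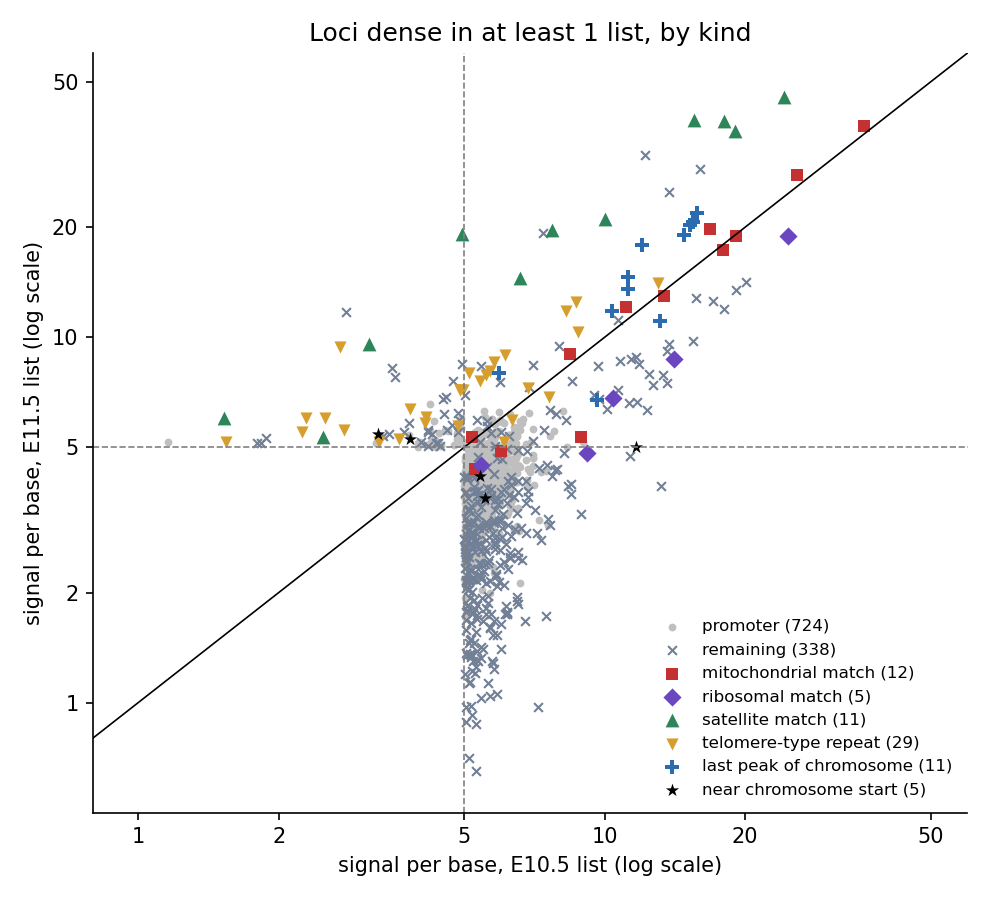
Signal per base at E10.5 (horizontal, log scale) and E11.5 (vertical, log scale) of the loci dense in at least 1 list that had a peak in both, by kind. Dashed lines mark 5, and the diagonal marks equal values. The 11 satellite loci lie above the diagonal, the 5 ribosomal loci below it and most mitochondrial loci near it, and no promoter exceeds 9.001 at E10.5.

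The 3 peaks nearest to the threshold on each side are given for orientation. At E10.5 the nearest inside were at Cfap74, Fam72a with Srgap2, and G3bp1, with 5.0012, 5.0019 and 5.0032. The nearest outside were at Magi1 (4.9993), the pair Gart and Son (4.9990) and within Impact (4.9994). At E11.5 the nearest inside were at Gm51965 with Gm527, Cic, and Dcaf6 with Mpc2, from 5.0039 to 5.0102. The nearest outside were at Rap2a, Tusc1 and Map3k3, from 4.9958 to 4.9986.

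Dense peaks were spread over all autosomes. At E10.5, 84.3% lay over an annotated gene, against 67.7% of other peaks, and at E11.5 66.8% did, against 74.9%. Pseudogene entries lay under 19 dense E10.5 peaks (1.77%, against 0.726%) and 8 dense E11.5 peaks (3.28%, against 1.31%). The share of dense peaks per chromosome ran from 0.797% on chromosome 6 to 1.68% on chromosome 17 at E10.5, and from 0.215% on chromosome 19 to 1.19% on chromosome 12 at E11.5. At E10.5, 229 of 1071 (21.4%) lay within 100 kb of another dense peak, and at E11.5 16 of 244 (6.56%) did. Such neighbours become more frequent with the number of dense peaks, and no share over other peaks was computed. The counts therefore show neither clustering nor a difference between the lists. The deposited −log10 p-value of the members was at least 7.61 at E10.5 and 8.43 in the E11.5 list.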

How the data were processed

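The 2 deposited peak lists are in narrowPeak format, on mm10 per the labels. The submitters' processing notes name cutadapt, Bowtie2, SAMtools, deepTools and Genrich, with no version, role or setting. How replicates were joined, and how reads with several matches were treated, is not given in the sources used here. The authors' deposited signal value was divided by the peak width. The deposited −log10 p exceeded this signal per base in 100% of peaks, by at least 2.04, and what the value sums is not stated. The deposited score was not used. Depth per sample is unknown.

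The threshold, members and lists were chosen with earlier results of these data known. Protein-coding start sites came from the RefSeq promoter table (250 bases before, 50 after) for 16456 autosomal genes, and from gene ends with the strand of GENCODE M1 for 3904 more, 98.5% of 20661 in all. Families were searched in NCBIM37. BLAST 2.17.0 was used for the mitochondrial genome, AY036118 with 5 kb before it, and the first 2000 bases of chromosome 9. Telomere repeats were instead counted by their letters, and bins of 100 bases with at least 10 copies were kept. Matches of at least 100 bp were set beside peaks by distance from 30585 promoter windows, with a tolerance of 200 bp. No coordinate was carried between builds. All coordinates are 1-based.

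Shares have 95% Wilson intervals. Overlap means at least 1 bp. Overlap and start site functions were tested on simulated data. The text names dense peaks away from start sites by level, the 20 highest promoters dense in both lists, the 5 highest per list dense in 1, the nearest to the threshold and the 3 highest per class. The snRNA genes, the split by identity, the width of 600 bp, Ror2, Zfp964 and the peak at 3754355 on chromosome 8 were chosen after their values were seen. Alternatives were other thresholds, widths, promoter definitions and overlaps. Python 3.11.15, pandas 2.3.3 and matplotlib 3.10.9 were used.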

Additional observations from a re-analysis of the deposited data

Results flagged for a closer look

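Peaks with a signal per base of at least 5 were also present on sequences that none of the counts above used, and the series has no control samples against which to set them. On the X chromosome there were 18 of 1559 peaks at E10.5 (1.15%), with a highest value of 13.6, and 5 of 970 at E11.5 (0.515%), with a highest value of 26.9. These shares are near the autosomal 1.10% and 0.671%. On sequences outside the assembled chromosomes there were 7 of 70 peaks at E10.5, with a highest value of 8.71, and 8 of 134 at E11.5, with a highest value of 18.4. Their families and gene classes were not tested.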

How the results depend on the processing

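No paired analysis was possible because the 2 replicates of a stage share 1 list; no replicate could be left out. Of 74 alternative values under 17 settings, 44 stayed within the 95% interval of the reported share, or within 1.5 times the reported count, and 30 moved. Other thresholds move the counts by construction. At a threshold of 4 there were 4258 and 1170 dense peaks at E10.5 and E11.5, the E11.5 promoter share was 76.6%, and 21.4% and 77.5% overlapped a dense peak of the other list. At 7 there were 113 and 81, with promoter shares of 14.2% and 0.0%, an E10.5 overlap of 50.4%, and 38.9% of the E10.5 genes in a listed class; no E11.5 gene was left for this share. At 10 there were 53 and 40, with promoter shares of 0.0% and 0.0% and overlaps of 60.4% and 80.0%. With the top 1% of each list, the E11.5 promoter share was 52.5%, and the overlaps were 22.0% and 58.2%. With peaks of at least 500 bp, 151 E11.5 peaks remained, the promoter shares were 72.1% and 61.6%, and the E10.5 overlap was 10.52%. Start sites of any gene gave an E10.5 promoter share of 68.4%. Without peaks placed at a family, a setting chosen after seeing the data, the E11.5 promoter share was 49.5% and the E10.5 overlap 12.1%. Among promoters dense in both lists, CCAAT was in 68.0%, the GC box in 65.3% and the ETS motif in 2.67% of windows. Leaving out histone genes and keeping 1 window per gene were also chosen after seeing the data. The cause of these moves was not tested. A limit of −log10 p of at least 5 could remove no dense peak, because the deposited −log10 p exceeded the signal per base in every peak. Its unchanged values among the 44 are therefore no check. Unknown depth limits every comparison of the lists.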
